A study of Homo sapiens with 27 samples.

Results

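The 34 genes named for cholesterol and fatty acid synthesis were looked up by symbol in an expression table of DLD1 cells, a human colorectal carcinoma line, and 31 of them were found among its 10470 genes. They comprise 17 of 18 named sterol enzymes, all 6 sterol regulators and 8 of 10 fatty acid enzymes; LSS, ELOVL5 and ACSS2 are not analysed here. The cells had been given small interfering RNAs (siRNAs) against VPS37A, VPS37B and VPS37C, 3 paralogs that substitute for each other in ESCRT-I, part of the machinery that sorts cargo on endosomes towards lysosomes. The 9 groups are untransfected cells (NT), cells with non-targeting siRNAs (siCTRL), single knockdowns (siVPS37A, siVPS37B, siVPS37C), pair knockdowns (siVPS37AB, siVPS37AC, siVPS37BC) and the triple knockdown (siVPS37ABC). Each group has 3 replicates and a time of 72 h, which for transfected cells is the time after transfection. Every paralog was targeted with 1 siRNA sequence, and all groups are the same cell line. Replicates are called biological in the labels, where each number is also a batch; since no label speaks of separate cultures, p-values measure the spread between these samples, which may be technical.

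Cholesterol is built from acetyl-CoA through mevalonate, isoprenoid diphosphates, squalene and a series of sterol intermediates. Transcription of the enzymes is driven by SREBP transcription factors, which stay in the endoplasmic reticulum in a complex with SCAP and INSIG proteins while sterols are plentiful and are carried to the Golgi and cut free when sterols fall. INSIG1 is itself a target of these factors. Fatty acid synthesis starts from the same acetyl-CoA, shares the SREBP factors and is followed by elongation and desaturation. Sterols taken up by endocytosis reach the endoplasmic reticulum by way of endosomes and lysosomes.

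Stretches upstream of 5 starts are shown, since 4 belong to a regulator or to enzymes of the SREBP system and PMVK moved the other way in the triple knockdown. They were taken from RefSeq on GRCh38.p14 and run 5′ to 3′ on the strand of the gene, and capitals mark matches, on either strand, to the core of a sterol element, which reads TCACNCCAC, to the E-box, which reads CACGTG, to the CCAAT box, whose name gives its letters, and to the GC box, which reads GGGCGG. The INSIG1 stretch lies at chr7:155297698-155297877 (+ strand), SREBF2 at chr22:41832950-41833054 (+ strand), HMGCS1 at chr5:43313443-43313602 (- strand), MSMO1 at chr4:165327519-165327668 (+ strand) and PMVK at chr1:154936720-154936869 (- strand). All are upstream of an annotated start and outside the transcript that begins there.
INSIG1: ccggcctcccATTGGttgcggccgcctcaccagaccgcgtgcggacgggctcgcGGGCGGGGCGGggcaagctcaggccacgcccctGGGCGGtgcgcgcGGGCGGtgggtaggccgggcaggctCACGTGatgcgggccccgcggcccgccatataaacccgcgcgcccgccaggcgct
SREBF2: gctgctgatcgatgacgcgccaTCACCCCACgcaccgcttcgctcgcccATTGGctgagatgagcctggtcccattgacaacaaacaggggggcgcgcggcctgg
HMGCS1: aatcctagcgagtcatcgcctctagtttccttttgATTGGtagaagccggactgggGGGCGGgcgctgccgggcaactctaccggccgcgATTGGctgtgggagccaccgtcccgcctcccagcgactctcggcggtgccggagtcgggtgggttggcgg
MSMO1: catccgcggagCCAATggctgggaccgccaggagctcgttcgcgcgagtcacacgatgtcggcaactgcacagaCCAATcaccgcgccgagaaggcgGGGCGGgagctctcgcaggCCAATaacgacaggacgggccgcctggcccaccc
PMVK: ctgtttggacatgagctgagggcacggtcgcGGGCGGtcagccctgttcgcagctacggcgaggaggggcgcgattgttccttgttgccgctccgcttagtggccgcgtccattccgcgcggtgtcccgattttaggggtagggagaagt
In INSIG1 a CCAAT box on the reverse strand is followed by 4 GC boxes, of which 2 overlap in 1 run of capitals, and an E-box. SREBF2 holds the sterol element and a reverse CCAAT box, HMGCS1 a pair of reverse CCAAT boxes around a GC box, and MSMO1 3 forward CCAAT boxes and a GC box. The PMVK stretch holds a GC box alone. The spans were chosen gene by gene, and the windows counted below hold further matches. Counted from the start, SREBF2 has GC boxes at -23, -10 and -5, INSIG1 at -233 and 33, HMGCS1 at -213 and MSMO1 at -250. MSMO1 also has a reverse CCAAT box at -185. Another annotated HMGCS1 start has GC boxes at -127 and -8 and no CCAAT box. The PMVK window holds no further match.

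Windows from 250 bases before to 50 bases after a start were available for 27 of the 31 genes and were searched for the same letters, counting a gene when any of its windows matched. A CCAAT box was present in 19 of 27 members (70.4%), against 39.7% of all 27305 genes with a window and 44.4% of the 5215 tested genes that have one. Among the 11 members with a window that were called higher in siVPS37ABC it was present in 10, and among the 10 other tested members in 7. GC boxes were found in 26 of 27 members (96.3%) and in 79.8% of tested genes. E-boxes were found in 3 of 27 members (11.1%) and in 13.7% of tested genes. The sterol element was found in 1 member, SREBF2 (3.7%), and in 1.5% of tested genes. Of all 35116 windows, 34.6% held a CCAAT box, 45% a GC box, 7.26% an E-box and 1.13% the sterol element. These are counts of letters and not of bound sites.

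Values are in TPM, that is, shares of a library total scaled to 1000000, and the depth of the libraries is unknown. In bulk RNA of this kind, fewer cells with a transcript and less transcript per cell cannot be told apart. The targeted transcripts checked the labels: VPS37A was at 2.52 to 10.2% of its siCTRL mean in the 12 libraries meant to lack it, VPS37B at 2.08 to 8.78% and VPS37C at 17.8 to 31.8%, against 64.4 to 170% in the libraries where each was not targeted. Colorectal epithelial markers summed to 7873 to 12634 TPM in every library (9 of 10 in the table, 8 of them with a mean of at least 10 TPM). The fibroblast (1 of 7), leukocyte (2 of 6) and endothelial (1 of 5) markers in the table summed to at most 5.83, 9.7 and 7.37 TPM, and none of 6 adipocyte and hepatocyte markers was in it. Changes below are differences of log2(TPM + 1) ± their standard error (SE), from 1 limma model of all 27 libraries. A gene was called when its p, adjusted by the Benjamini-Hochberg method over 6458 genes whose mean over all libraries reached 10 TPM, was under 0.05. Where libraries of 2 groups do not overlap, this describes the gene alone. The share of all tested genes without overlap is not given here, so it is not a result about the members. By that rule 25 members were tested: 16 sterol enzymes, 5 regulators and 4 fatty acid enzymes. SC5D, INSIG2, ELOVL6, FADS1, FADS2 and LPIN1 lie under 10 TPM and are given from the same model of all 10470 genes, where the log scale understates their changes.

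Sterol enzymes and regulators made up 11 of the 12 rises seen after loss of all 3 paralogs. With 16 and 5 genes they are also most of the 25 tested members, and the low genes are not in these counts. Against siCTRL, 12 of the 25 tested members rose and 1 fell in siVPS37ABC, that is 52% called, where 21.9% of all tested genes were called, 13.6% higher and 8.32% lower. The median change of the 25 members was 0.4, against 0.03 for all tested genes. Of 16 sterol enzymes 8 rose and 1 fell (median 0.52), of 5 regulators 3 rose (median 0.56), and of 4 fatty acid enzymes 1 rose (median 0.33); these medians were not tested against each other. The 2 largest rises were those of INSIG1 and HMGCS1, and the fall was that of PMVK. Under quantile normalization 1497 of all 6458 tested genes were called in place of 1417, and 51.9% of these were higher in place of 62.1%. Of the 25 members 13 then rose and 2 fell. The heat map of log2 changes shows these calls beside those of the other groups.

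**Figure D1:**
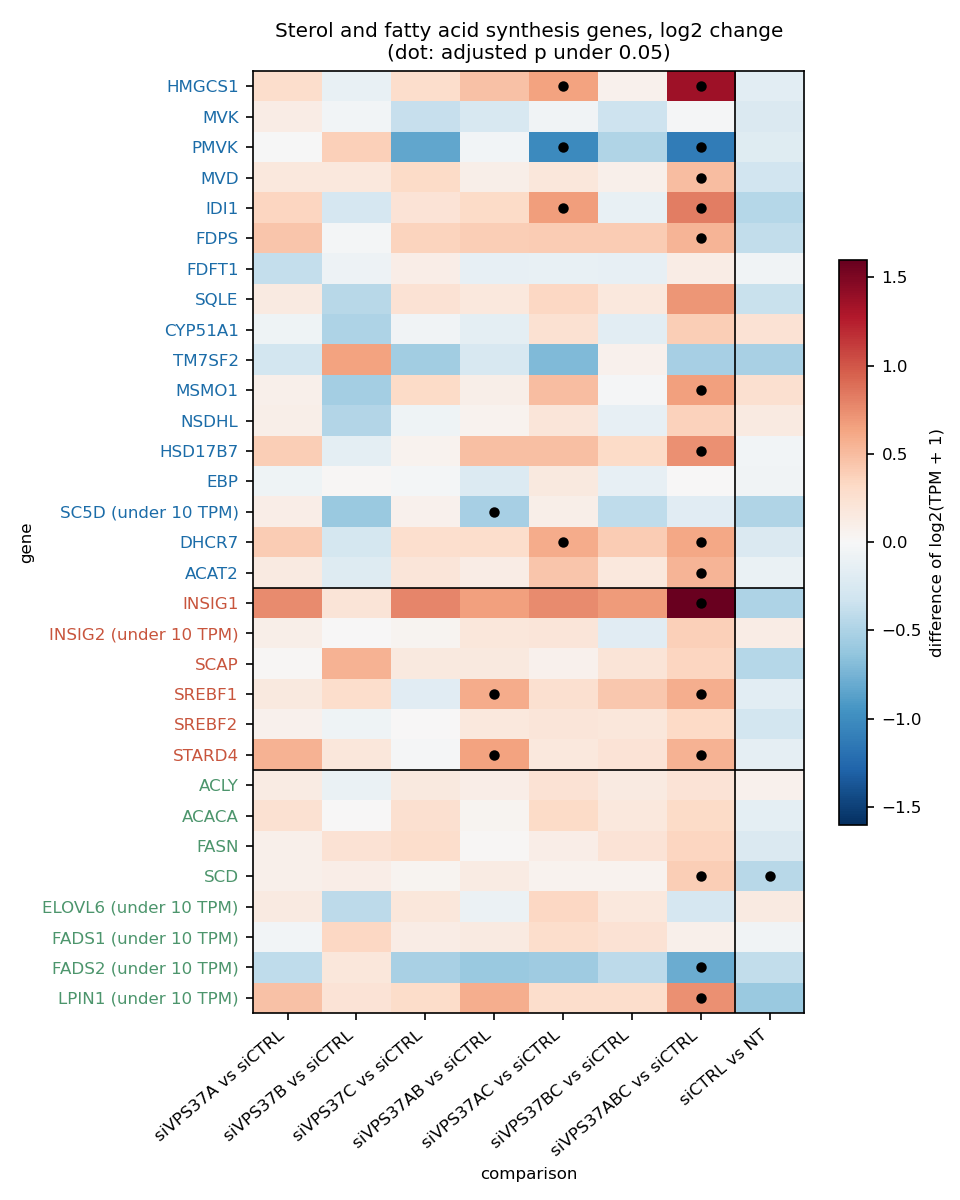
Difference of log2(TPM + 1) for the 31 genes (rows, coloured by class: sterol enzymes blue, sterol regulators red, fatty acid enzymes green) in the 7 knockdowns against siCTRL and in siCTRL against NT (columns), with a dot where the adjusted p was under 0.05. Most dots lie in the siVPS37ABC column, and PMVK is blue in each column that includes VPS37C.

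In the steps from acetyl-CoA to squalene, HMGCS1 changed most. HMGCS1 condenses acetoacetyl-CoA with acetyl-CoA, and its level was 98.4, 73.3 and 83.7 TPM in siCTRL and 175, 188 and 318 TPM in siVPS37ABC. Every triple knockdown library was above every control library, and the third replicate was the highest. The mean rose from 85.1 ± 12.6 to 227 ± 79.4 TPM (SD, n = 3), 2.66 times the siCTRL mean, and the log2 change was 1.36 ± 0.18 (adjusted p = 5.62e-06). Within batches 1, 2 and 3 it was 0.82, 1.35 and 1.91.

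IDI1, which isomerises isopentenyl diphosphate, was at 141, 117 and 139 TPM in siCTRL and 196, 237 and 272 TPM in siVPS37ABC, with no overlap (0.82 ± 0.14, adjusted p = 1.23e-04). FDPS, which makes farnesyl diphosphate, was at 118, 111 and 105 TPM against 153, 183 and 153 TPM (0.54 ± 0.15, adjusted p = 0.0121). MVD, the mevalonate diphosphate decarboxylase, was at 37.5, 35.8 and 40.7 TPM against 53, 58.2 and 50.3 TPM (0.49 ± 0.15, adjusted p = 0.0205). All 3 genes rose without overlap between the groups. ACAT2, a cytosolic thiolase that joins acetyl-CoA units, was at 151, 141 and 204 TPM against 202, 234 and 287 TPM (0.55 ± 0.18, adjusted p = 0.0264). For ACAT2 the highest control library lay just above the lowest triple knockdown library.

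The exception in these steps was PMVK, the phosphomevalonate kinase, at 28.6, 36.7 and 35.9 TPM in siCTRL and 16.4, 17.9 and 11.3 TPM in siVPS37ABC. The groups did not overlap, and PMVK fell by 1.12 on the log2 scale (SE 0.22, adjusted p = 4.55e-04), with within-batch changes of -0.77, -1 and -1.59. MVK, the kinase of the preceding step, ranged from 21.5 to 28 TPM in siCTRL and from 22.2 to 26.1 TPM in siVPS37ABC (-0.02 ± 0.17), and FDFT1, the squalene synthase, from 359 to 514 TPM and from 355 to 585 TPM (0.12 ± 0.2). Neither was called.

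Among the later enzymes, from squalene to cholesterol, 3 were called. HSD17B7, a sterol ketoreductase, was at 56.2, 76.5 and 64.4 TPM in siCTRL and 88.7, 113 and 129 TPM in siVPS37ABC (0.73 ± 0.21, adjusted p = 0.0118). DHCR7, the reductase that completes cholesterol, was at 222, 241 and 281 TPM against 390, 390 and 360 TPM (0.62 ± 0.15, adjusted p = 0.00467). Both rose without overlap. MSMO1, a methylsterol oxidase, was at 154, 171 and 224 TPM against 207, 268 and 413 TPM (0.65 ± 0.2, adjusted p = 0.0178), with the highest control library above the lowest triple knockdown library and the third replicate again highest.

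The other late enzymes did not pass the test. SQLE, the squalene epoxidase, was at 24.6, 22.5 and 38.3 TPM in siCTRL and at 32.3, 49 and 60.7 TPM in siVPS37ABC, overlapping between groups but higher in each of 3 batches (0.71 ± 0.26, adjusted p = 0.0528). With the replicate number as a block in the model SQLE passed (adjusted p = 0.00121), as did NSDHL (0.36, adjusted p = 0.0208). CYP51A1, the lanosterol demethylase, showed a change of 0.39 ± 0.22, and the triple knockdown libraries were at 232, 285 and 425 TPM. TM7SF2, a sterol reductase, showed -0.53 ± 0.22 (adjusted p = 0.0859), and EBP, a sterol isomerase, 0 ± 0.14. The desaturase SC5D, at 3.2 to 3.81 TPM in siVPS37ABC, showed -0.18 ± 0.16.

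**Figure D2:**
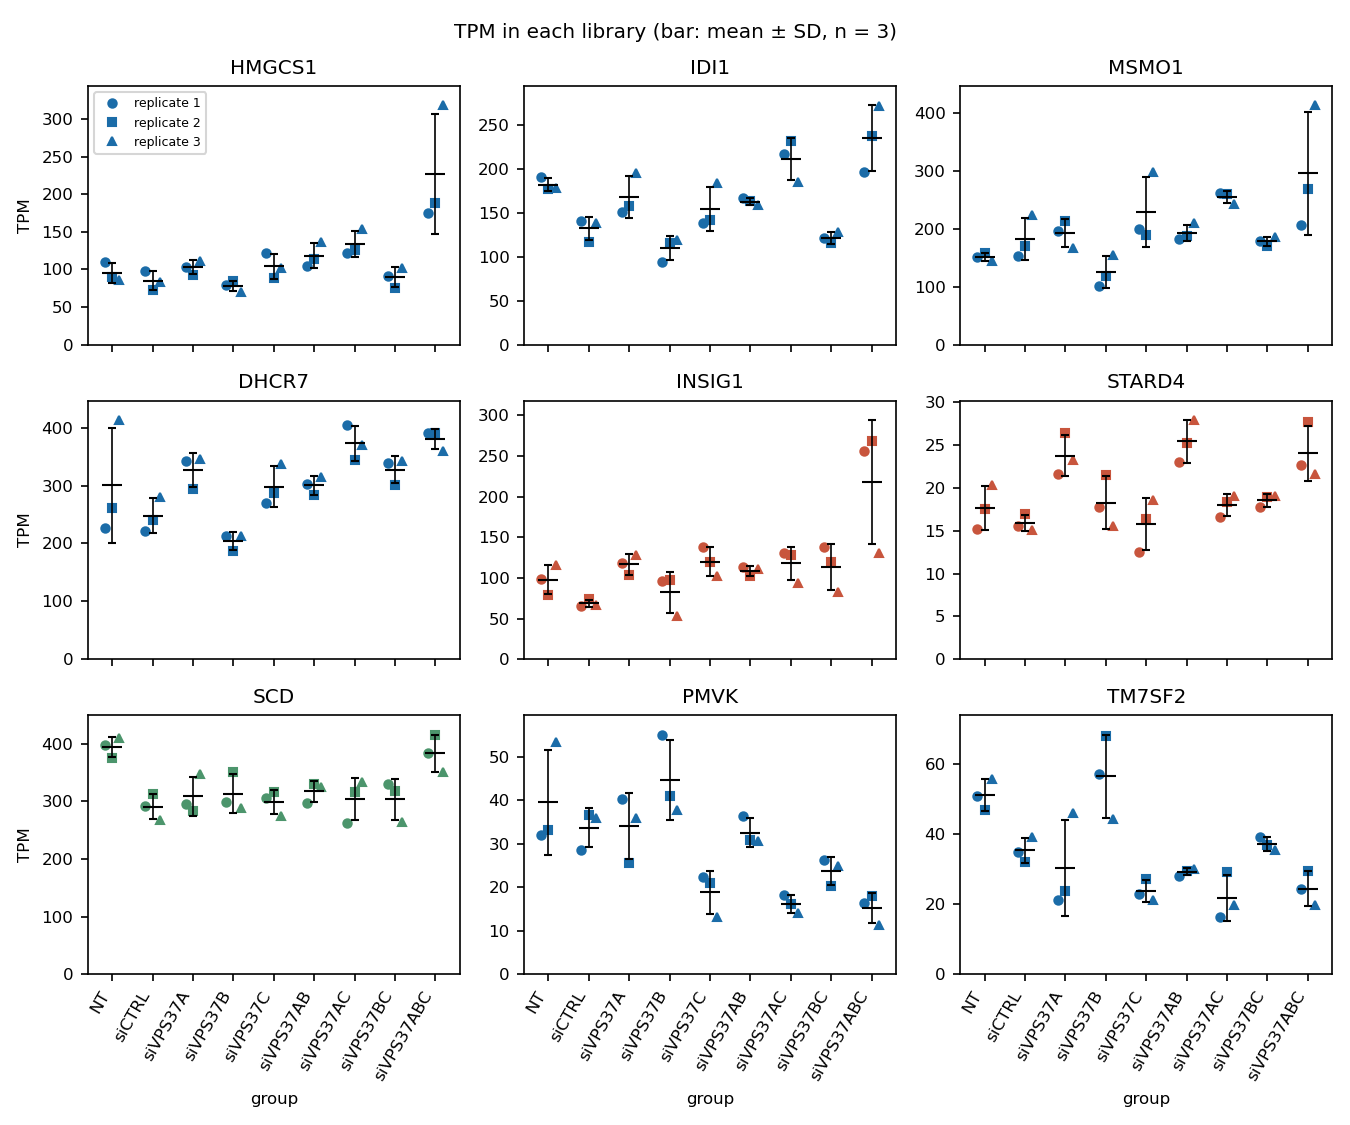
TPM in each of the 27 libraries (vertical axis) by group (horizontal axis) for 9 of the genes, with a marker for each replicate and a bar for the mean ± SD (n = 3). HMGCS1 and INSIG1 are highest in siVPS37ABC, where replicate 3 is the highest of the group for HMGCS1 (318 TPM) and the lowest for INSIG1 (131 TPM), and PMVK is low wherever VPS37C was targeted.

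Among the regulators INSIG1 had the largest change of all members against siCTRL in the model of group means. INSIG1 anchors the SREBP and SCAP complex in the endoplasmic reticulum, and it was at 66.2, 73.9 and 66.4 TPM in siCTRL and at 256, 268 and 131 TPM in siVPS37ABC. No libraries overlapped, but here the third replicate was the lowest. The mean was 68.8 ± 4.41 TPM in siCTRL and 218 ± 76.1 TPM in siVPS37ABC (SD, n = 3), 3.17 times as high, with a log2 change of 1.58 ± 0.24 (adjusted p = 2.41e-05). Within batches 1, 2 and 3 the change was 1.93, 1.85 and 0.97. With the library number term the change of INSIG1 was 1.06, that of HMGCS1 1.62 and that of PMVK -1.37. Against NT these were 1.09, 1.2 and -1.31.

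SREBF1, the gene of the SREBP factor tied mainly to fatty acid synthesis, was at 15.2, 19.1 and 20.5 TPM in siCTRL and 22.1, 29.5 and 32.6 TPM in siVPS37ABC (0.58 ± 0.17, adjusted p = 0.0121). STARD4, a soluble sterol carrier, was at 15.5, 16.9 and 15.1 TPM against 22.7, 27.7 and 21.6 TPM (0.56 ± 0.15, adjusted p = 0.00762). Neither pair of groups overlapped. SREBF2, the gene of the factor tied mainly to sterol synthesis, was at 54.7, 56.1 and 56 TPM in siCTRL and 65.1, 71.8 and 73 TPM in siVPS37ABC, without overlap, yet was not called (0.32 ± 0.17, adjusted p = 0.173). SCAP, the escort of the SREBP factors, showed 0.34 ± 0.15 (adjusted p = 0.117), and INSIG2, the INSIG1 paralog, at 4.09 to 9.25 TPM in siVPS37ABC, showed 0.39 ± 0.21.

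Of the 4 tested fatty acid enzymes SCD alone was called. SCD, which desaturates stearoyl-CoA, was at 292, 313 and 269 TPM in siCTRL and 384, 416 and 352 TPM in siVPS37ABC, without overlap (0.4 ± 0.12, adjusted p = 0.0207). Its within-batch changes were 0.4, 0.41 and 0.39. FASN, the fatty acid synthase, showed 0.34 ± 0.26, ACACA, which makes malonyl-CoA, 0.31 ± 0.17, and ACLY, which makes acetyl-CoA from citrate, 0.22 ± 0.13. None of these 3 passed, although each was higher in 3 of 3 batches, and ACACA passed with the replicate block (adjusted p = 0.031).

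Of the low genes, in the model of all 10470 genes (20.2% of which were called in siVPS37ABC against siCTRL), FADS2 and LPIN1 passed. FADS2, a polyunsaturated fatty acid desaturase, was at 8.41, 12 and 7.58 TPM in siCTRL and 3.96, 6.64 and 4.36 TPM in siVPS37ABC (-0.79 ± 0.21, adjusted p = 0.00779). LPIN1, a phosphatidate phosphatase, was at 2.78, 3.19 and 2.85 TPM against 4.25, 6.94 and 5.76 TPM (0.74 ± 0.21, adjusted p = 0.0115). The groups did not overlap for either gene, and these opposite changes lie in the same class. The elongase ELOVL6 (-0.27 ± 0.17) and the desaturase FADS1 (0.08 ± 0.19) did not pass.

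**Figure D3:**
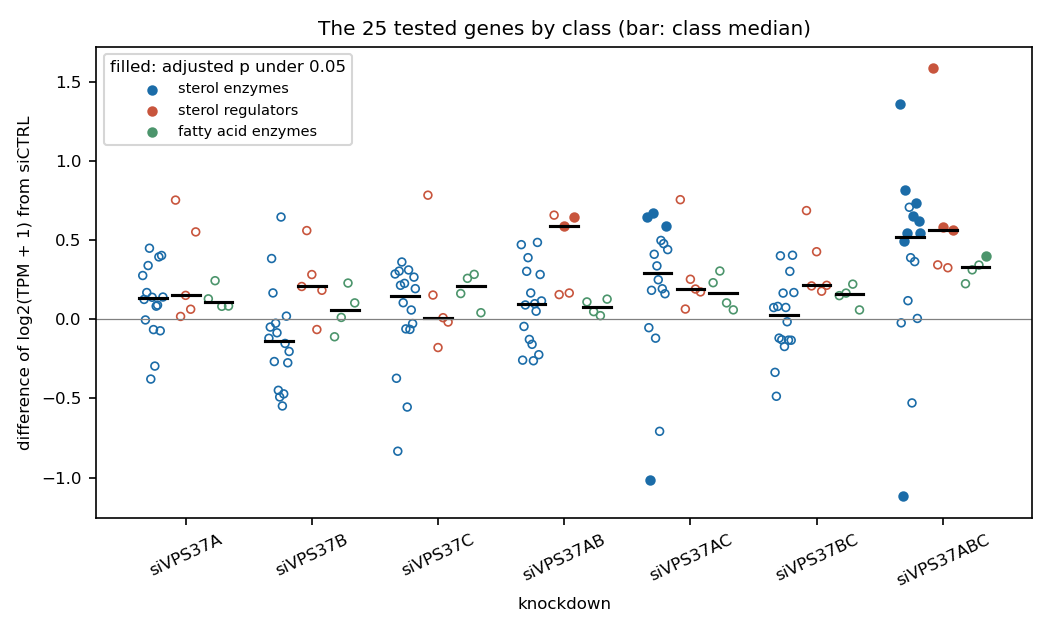
Difference of log2(TPM + 1) from siCTRL (vertical axis) for the 25 tested genes in each knockdown (horizontal axis), coloured by class, filled where the adjusted p was under 0.05, with a black bar at the class median. The class medians in siVPS37ABC are 0.52, 0.56 and 0.33, and the single filled points of siVPS37AB are 2 regulators.

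Without 1 library at a time, 5 of the 15 calls of siVPS37ABC against siCTRL (low genes included) stayed in all 6 omissions: HMGCS1, INSIG1, IDI1, DHCR7 and PMVK. The count among the 25 tested genes fell to 8 without siCTRL replicate 1 and to 8 without siVPS37ABC replicate 2, and otherwise lay between 10 and 13. In what follows, numbers in parentheses are the adjusted p without the library named. Omission of siVPS37ABC replicate 2 ended the calls of STARD4 (0.0569), FDPS (0.0715), MVD (0.0856), ACAT2 (0.0576), SCD (0.0994) and LPIN1 (0.0747). Omission of siVPS37ABC replicate 3 ended those of MSMO1 (0.161), ACAT2 (0.134), HSD17B7 (0.0628) and SREBF1 (0.0697), and that of replicate 1 ended SCD (0.0511). Omission of siCTRL replicate 1 ended MSMO1 (0.0926), ACAT2 (0.0924), HSD17B7 (0.0618), MVD (0.0557) and SREBF1 (0.0804). Omission of siCTRL replicate 2 ended MSMO1 (0.0597), ACAT2 (0.123), MVD (0.0724) and FADS2 (0.0641), and that of siCTRL replicate 3 ended FDPS (0.0516) and SCD (0.0957). No siVPS37ABC library shares the number at the end of its library description with the siCTRL library of its batch, so that number and the knockdown cannot be told apart within a batch. A model with a term for that number called 17 of the 25 members (15 higher, 2 lower), 11 of them among the 13, and ended the calls of FDPS (adjusted p = 0.0764) and SCD (0.111). A model of the siVPS37ABC and siCTRL libraries alone called 9 and ended the calls of ACAT2 (adjusted p = 0.0622), MSMO1 (0.0792), SREBF1 (0.0562) and SCD (0.0724). For these 2 models and for the omissions no share of all tested genes is given.

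Of the pair knockdowns, siVPS37AC came next. It had 4 of 25 members called (4.4% of all tested genes), 3 higher and 1 lower, all sterol enzymes. IDI1 was at 218, 232 and 185 TPM (0.67 ± 0.14, adjusted p = 0.00623), HMGCS1 at 122, 126 and 153 TPM (0.65 ± 0.18, adjusted p = 0.0422) and DHCR7 at 405, 345 and 370 TPM (0.59 ± 0.15, adjusted p = 0.0282), each above every siCTRL library. PMVK was at 18.2, 16.2 and 14.1 TPM, below every siCTRL library (-1.01 ± 0.22, adjusted p = 0.0069). With the replicate block 8 members were called, the additions being TM7SF2, lower (-0.71, adjusted p = 0.0265), and HSD17B7 (0.48, adjusted p = 0.0459), ACAT2 (0.44, adjusted p = 0.0256) and INSIG1 (0.75, adjusted p = 0.0151), higher. With the library number term 14 were called, 12 higher and 2 lower, with the 4 among them. The 4.4% belongs to the model without these terms, and no share of all tested genes is given for either of the others.

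PMVK alone kept its call in siVPS37AC in all 6 omissions, and the count then lay between 2 and 3. The numbers in parentheses are again adjusted p without the library named. IDI1 lost its call without siVPS37AC replicate 2 (0.0503). HMGCS1 lost it without siCTRL replicate 2 (0.186) or 3 (0.106) or siVPS37AC replicate 1 (0.0721), 2 (0.111) or 3 (0.172). DHCR7 lost it without siCTRL replicate 1 (0.117) or 2 (0.0897) or siVPS37AC replicate 1 (0.111), 2 (0.0566) or 3 (0.0758). With NT as reference HMGCS1 (0.48, adjusted p = 0.0779), IDI1 (0.21, adjusted p = 0.329) and DHCR7 (0.36, adjusted p = 0.123) were not called in siVPS37AC, and under quantile normalization HMGCS1 was not (adjusted p = 0.0672).

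In siVPS37AB 2 of 25 members were called, both higher and both regulators, where 14.8% of all tested genes were called. STARD4 was at 23, 25.3 and 27.9 TPM (0.64 ± 0.15, adjusted p = 0.00442) and SREBF1 at 25, 29.6 and 29 TPM (0.59 ± 0.17, adjusted p = 0.0171), all above every siCTRL library. With the replicate block 6 members were called, all higher, with HMGCS1 (0.47), FDPS (0.39), HSD17B7 (0.48) and INSIG1 (0.66) added. With the library number term 5 were called, 4 higher and 1 lower, STARD4 being the call in common. The 14.8% belongs to neither of these models, for which no share of all tested genes is given. Of the low genes, in the model without a filter (14% of genes called), SC5D was lower, at 2.58, 2.77 and 2.28 TPM against 5.36, 3.55 and 3.66 TPM in siCTRL (-0.54 ± 0.16, adjusted p = 0.0235).

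STARD4 kept its call in siVPS37AB in every omission. SREBF1 lost it without siCTRL replicate 1 (adjusted p = 0.0994) or siVPS37AB replicate 2 (0.0625) or 3 (0.0605), and the count of members then was 1. It also lost it with the library number term (adjusted p = 0.0812) and with NT as reference (0.0758). SC5D lost it without siCTRL replicate 1 (adjusted p = 0.154) or siVPS37AB replicate 1 (0.06) or 3 (0.0951), and in a model of siVPS37AB and siCTRL alone (0.0661).

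In siVPS37BC none of the 25 members was called by limma, with or without the replicate block. Without the block 1.29% of all tested genes were called. An unadjusted p under 0.05 was seen in 5 members, and in 798 of all 6458 tested genes. The single knockdowns had no member called either: 0 of 25 in siVPS37A (1.83% of all tested genes), in siVPS37B (1.72%) and in siVPS37C (0.496%). In each, 5 members had an unadjusted p under 0.05. Of all 6458 tested genes 854, 1038 and 522 did in siVPS37A, siVPS37B and siVPS37C. With the replicate block 2 members were called in siVPS37A, namely INSIG1 (0.75, adjusted p = 0.0235) and STARD4 (0.55, adjusted p = 0.00897), both higher. In siVPS37B 3 were called with the block, MSMO1 (-0.55, adjusted p = 0.0404) and NSDHL (-0.47, adjusted p = 0.016) lower and SCAP (0.56, adjusted p = 0.0121) higher, beside the low gene SC5D (-0.59, adjusted p = 0.0207). In siVPS37C 2 were called with the block, INSIG1 higher (0.78, adjusted p = 0.037) and PMVK lower (-0.83, adjusted p = 0.0269). The shares of all tested genes given here belong to the model without the block, and none is given with it. These counts with the block are therefore not a result about the members.

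INSIG1 lay above every siCTRL library in 6 of the 7 knockdowns. It was at 119, 104 and 129 TPM in siVPS37A, 138, 119 and 102 TPM in siVPS37C, 114, 102 and 112 TPM in siVPS37AB, 131, 129 and 94.2 TPM in siVPS37AC and 138, 120 and 82.8 TPM in siVPS37BC. In siVPS37B it was at 96.5, 97.1 and 53.5 TPM and overlapped siCTRL. Its group means in the other knockdowns, from 109 ± 6.3 TPM in siVPS37AB to 120 ± 17.7 TPM in siVPS37C (SD, n = 3), lie within their spreads of each other, and siVPS37ABC had the highest mean, at 218 ± 76.1 TPM, although its library at 131 TPM overlapped those of siVPS37C and siVPS37BC. The siCTRL mean was also lower than that of NT, at 98.1 ± 18.3 TPM, whose libraries were at 99.1, 79.4 and 116 TPM.

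HMGCS1 followed another order. Its mean was lowest in siVPS37B, at 77.9 ± 6.99 TPM, and close to siCTRL in siVPS37BC, at 89.7 ± 13.6 TPM (SD, n = 3). It was 95.4 ± 13.2 TPM in NT, 103 ± 9.18 TPM in siVPS37A, 104 ± 16.7 TPM in siVPS37C, 118 ± 16.6 TPM in siVPS37AB, 134 ± 17 TPM in siVPS37AC and 227 ± 79.4 TPM in siVPS37ABC. Neighbours in this order overlap within their SD, and the libraries of siVPS37AC and siVPS37ABC do not overlap. In siVPS37B, 12 of the 16 tested sterol enzymes had a change under 0 (median -0.14, all tested genes -0.02). In siVPS37AC 12 of 16 had a change above 0 (median 0.29, all tested genes 0.07). Of all 6458 tested genes, 2980 had a change above 0 in siVPS37B and 4022 in siVPS37AC. The counts of signs were not tested against these.

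Among the sterol enzymes, PMVK and TM7SF2 lay below every siCTRL library in the most knockdowns, 4 of 7 each. SC5D did so in 3, and MVK, NSDHL and DHCR7 in 1 each. PMVK lay below every siCTRL library in all 4 knockdowns that include VPS37C and in none of the others: it was at 22.3, 21.1 and 13.2 TPM in siVPS37C and at 26.3, 20.2 and 24.9 TPM in siVPS37BC, beside the siVPS37AC and siVPS37ABC values above. In siVPS37A it was at 40.3, 25.6 and 36 TPM, in siVPS37AB at 36.3, 30.8 and 30.5 TPM and in siVPS37B at 55.1, 40.9 and 37.8 TPM. The changes of siVPS37C (-0.83 ± 0.22, adjusted p = 0.0976) and siVPS37BC (-0.49 ± 0.22, adjusted p = 0.362) did not pass. All 4 groups carry the same siRNA sequence against VPS37C, and no other sequence against it was measured.

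TM7SF2 was at 34.7, 32 and 39.1 TPM in siCTRL. It lay below every siCTRL library in siVPS37C, at 22.9, 27.2 and 21.1 TPM, in siVPS37AC, at 16.4, 29.1 and 19.7 TPM, in siVPS37AB, at 28, 29.5 and 30 TPM, and in siVPS37ABC, at 24.2, 29.4 and 19.6 TPM. In siVPS37B it lay above, at 56.9, 68 and 44.2 TPM (0.64 ± 0.22, adjusted p = 0.126), and in siVPS37BC it was close to siCTRL, at 39.2, 36.8 and 35.3 TPM. TM7SF2 was not called in any knockdown against siCTRL in the model described above. Under alternatives it was called lower in siVPS37AC with the replicate block (-0.71, adjusted p = 0.0265), the library number term (-1.05, adjusted p = 0.00195) and quantile normalization (-0.78, adjusted p = 0.0353). In siVPS37ABC it was called lower with the library number term (-0.87, adjusted p = 0.00274) and quantile normalization (-0.6, adjusted p = 0.0434), and in siVPS37AB with the library number term (-0.83, adjusted p = 0.0151). Against NT it was called lower in siVPS37A, siVPS37C, siVPS37AB, siVPS37AC and siVPS37ABC, with changes from -0.78 to -1.23. TM7SF2 was also lower in siCTRL than in NT (-0.52, not called). The changes against NT include that difference.

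FADS2 and SC5D showed the same kind of spread at low levels. FADS2 lay below every siCTRL library in 5 of 7 knockdowns, with group means from 4.99 ± 1.44 TPM in siVPS37ABC to 6.6 ± 0.731 TPM in siVPS37BC (SD, n = 3) against 9.33 ± 2.35 TPM in siCTRL. SC5D lay below in siVPS37B (2.42 ± 0.407 TPM), siVPS37AB (2.54 ± 0.246 TPM) and siVPS37BC (2.86 ± 0.156 TPM) against 4.19 ± 1.02 TPM in siCTRL, and in siVPS37ABC, at 3.54 ± 0.311 TPM, it overlapped. In the model without a filter and without the replicate block, SC5D in siVPS37AB and FADS2 in siVPS37ABC were the calls among these differences. Quantile normalization added FADS2 in siVPS37AB (-0.73, adjusted p = 0.0159) and SC5D in siVPS37B (-0.63, adjusted p = 0.0312). With the block FADS2 was also called lower in siVPS37AB (-0.6, adjusted p = 0.00303) and siVPS37AC (-0.57, adjusted p = 0.0103), and SC5D in siVPS37B (-0.59, adjusted p = 0.0207). LPIN1 was called higher in siVPS37AB with the block (0.58, adjusted p = 0.00572).

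The triple knockdown was set against each pair to ask what the third paralog adds. Against siVPS37AB 2 of 25 members were called (1.04% of all tested genes): HMGCS1 was higher (0.89 ± 0.18, adjusted p = 0.0126) and PMVK lower (-1.07 ± 0.22, adjusted p = 0.0114), and the libraries of neither gene overlapped. With the replicate block 4 were called, with IDI1 (0.51, adjusted p = 0.0226) and INSIG1 (0.93, adjusted p = 0.0077) added, and with the library number term 4 as well. The 1.04% comes from the model without these terms, and no share is given for either of the others. In a model of these 2 groups alone HMGCS1 was not called (adjusted p = 0.101). Both calls were lost without siVPS37AB replicate 1 (HMGCS1 adjusted p = 0.0723, PMVK 0.0585) and without siVPS37AB replicate 2 (0.0725 and 0.054). Without siVPS37ABC replicate 3 the calls of HMGCS1 and PMVK were lost as well (0.118 and 0.0975).

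Against siVPS37AC 2 members were called (4.35% of all tested genes), HMGCS1 (0.71 ± 0.18, adjusted p = 0.0229) and INSIG1 (0.83 ± 0.24, adjusted p = 0.0429), both higher. The libraries did not overlap for HMGCS1. For INSIG1 the highest siVPS37AC library and the lowest siVPS37ABC library are equal as rounded here. In the model without a filter (4.62% of genes called) the elongase ELOVL6 was lower, at 4.94, 7.73 and 8.07 TPM against 10.8, 11.4 and 10.1 TPM (-0.6 ± 0.17, adjusted p = 0.0342). In a model of these 2 groups alone none of HMGCS1 (adjusted p = 0.0723), INSIG1 (0.0728) and ELOVL6 (0.117) was called. HMGCS1 lost its call without siVPS37AC replicate 1 (adjusted p = 0.119) or 2 (0.0829) or siVPS37ABC replicate 3 (0.135). INSIG1 lost it without siVPS37AC replicate 1 (adjusted p = 0.0827), 2 (0.0693) or 3 (0.202) or siVPS37ABC replicate 1 (0.183) or 2 (0.233). ELOVL6 lost it without siVPS37AC replicate 1 (adjusted p = 0.109), 2 (0.11) or 3 (0.0702) or siVPS37ABC replicate 1 (0.229).

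Against siVPS37BC 5 members were called, all higher, where 12% of all tested genes were called. They were HMGCS1 (1.29 ± 0.18, adjusted p = 3.38e-05), IDI1 (0.93 ± 0.14, adjusted p = 6.39e-05), INSIG1 (0.9 ± 0.24, adjusted p = 0.0126), MSMO1 (0.67 ± 0.2, adjusted p = 0.0259) and NSDHL (0.5 ± 0.16, adjusted p = 0.0369). NSDHL, a dehydrogenase that acts in sterol demethylation, was at 61.9, 53.6 and 66.7 TPM in siVPS37BC and 74.7, 76.2 and 110 TPM in siVPS37ABC. With the replicate block 13 members were called, 11 higher and 2 lower, the lower ones being PMVK (-0.63, adjusted p = 0.0276) and TM7SF2 (-0.6, adjusted p = 0.0389). With the library number term 8 were called, all higher. The 12% comes from the model without these terms, and no share is given for either of the others.

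HMGCS1 and IDI1 kept their calls against siVPS37BC in every omission, while in a model of these 2 groups alone INSIG1 (adjusted p = 0.0583), MSMO1 (0.072) and NSDHL (0.101) were not called. INSIG1 lost its call without siVPS37BC replicate 3 (adjusted p = 0.0911) or siVPS37ABC replicate 1 (0.0669) or 2 (0.0884). MSMO1 lost it without siVPS37BC replicate 1 (adjusted p = 0.07), 2 (0.0847) or 3 (0.0517) or siVPS37ABC replicate 3 (0.215). NSDHL lost it without siVPS37BC replicate 1 (adjusted p = 0.0809) or 2 (0.17) or siVPS37ABC replicate 3 (0.243).

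Each pair knockdown, and the triple, was compared with the added log2 changes of its single knockdowns. No member was called in any of the 4 tests, and neither was any other gene (0% of 6458 genes for siVPS37AB, siVPS37AC, siVPS37BC and siVPS37ABC). At an unadjusted p under 0.05 limma gave 0 members for siVPS37AB, 1 for siVPS37AC (INSIG1, -0.78 ± 0.34), 1 for siVPS37BC (SCAP, -0.5 ± 0.22) and 3 for siVPS37ABC. The last were CYP51A1 (1.01 ± 0.44, adjusted p = 0.636), HMGCS1 (0.92 ± 0.37, adjusted p = 0.596) and NSDHL (0.81 ± 0.31, adjusted p = 0.591). Of all 6458 tested genes, 483, 250, 300 and 449 had such a p in these 4 tests, in the same order. INSIG1 departed by -0.16 ± 0.48 in siVPS37ABC.

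Transfection with control siRNAs is the background of these comparisons. In siCTRL against NT 1 of 25 members was called (3.17% of all tested genes), SCD, at 398, 376 and 410 TPM in NT and 292, 313 and 269 TPM in siCTRL (-0.44 ± 0.12, adjusted p = 0.0483). The changes of 21 of the 25 members lay under 0 (median -0.19, all tested genes 0), while those of 3253 of all 6458 tested genes lay above 0. With the replicate block 3 members were called, all lower: SCD (adjusted p = 0.0167), IDI1 (-0.46, adjusted p = 0.0246) and SCAP (-0.45, adjusted p = 0.0365). The low genes LPIN1 (-0.6, adjusted p = 0.0121) and SC5D (-0.48, adjusted p = 0.0497) were called lower with the block too. With the library number term 4 were called. The 3.17% comes from the model without these terms, and no share is given for either of the others. SCD was also not called under quantile normalization (adjusted p = 0.051), with a mean of at least 50 TPM (0.0504) or in a model of these 2 groups alone (0.193). The call of SCD was lost when any 1 of the 6 libraries was left out, with adjusted p from 0.062 (without NT replicate 2) to 0.206 (without siCTRL replicate 3).

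Set against NT, 9 of the 25 members were called in siVPS37ABC, 7 higher and 2 lower. The share of all tested genes called against NT is not given here, so this count has no background beside it. Of the 13 called against siCTRL, 6 were called against NT as well. These were HMGCS1 (1.2 ± 0.18, adjusted p = 3.16e-05), INSIG1 (1.09 ± 0.24, adjusted p = 0.00128), MSMO1 (0.9 ± 0.2, adjusted p = 0.00131), HSD17B7 (0.69 ± 0.21, adjusted p = 0.0148) and STARD4 (0.42 ± 0.15, adjusted p = 0.0389), all higher, and PMVK (-1.31 ± 0.22, adjusted p = 7.63e-05), lower. CYP51A1 (0.62 ± 0.22) and NSDHL (0.51 ± 0.16) were called higher and TM7SF2 (-1.05 ± 0.22) lower against NT but not against siCTRL. IDI1 (0.36 ± 0.14, adjusted p = 0.0643), DHCR7 (0.39 ± 0.15, adjusted p = 0.0683), ACAT2 (0.43 ± 0.18, adjusted p = 0.0715) and SREBF1 (0.42 ± 0.17, adjusted p = 0.0658) lost their calls. So did MVD (0.19 ± 0.15), FDPS (0.15 ± 0.15) and SCD, which lay at -0.04 ± 0.12. Of the low genes FADS2 was lower against both references (-1.19 ± 0.21 against NT), SC5D was lower against NT alone (-0.66 ± 0.16), and LPIN1 was at 0.14 ± 0.21. The comparisons share the siVPS37ABC libraries, and the plot of both references shows their values side by side.

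**Figure D4:**
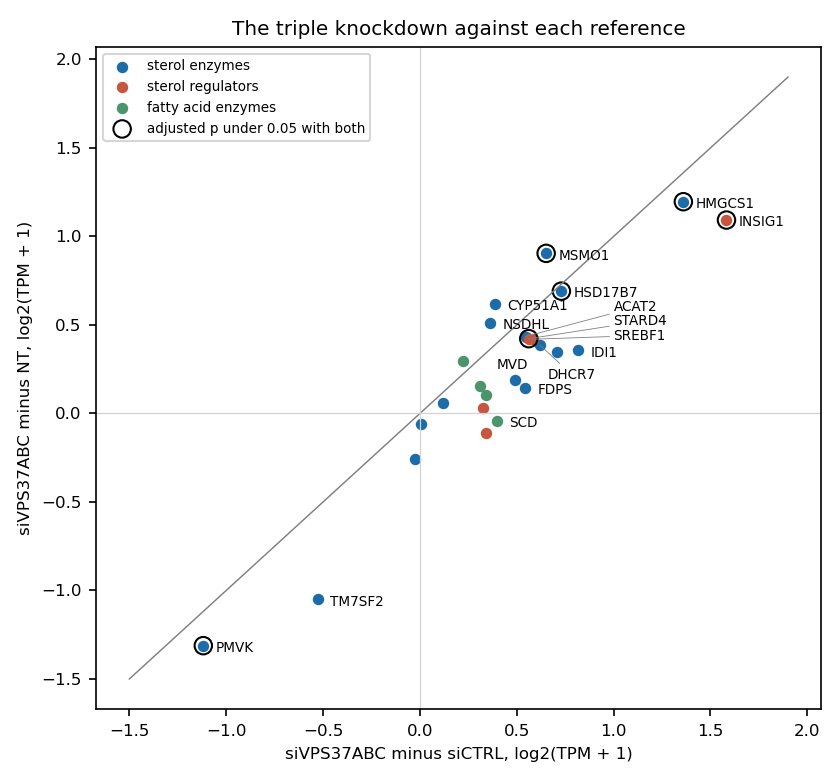
Difference of log2(TPM + 1) of siVPS37ABC from siCTRL (horizontal axis) and from NT (vertical axis) for the 25 tested genes, coloured by class, with a ring where the adjusted p was under 0.05 with both references and a grey line where both differences are equal. HMGCS1, INSIG1, MSMO1, HSD17B7, STARD4 and PMVK carry rings, and SCD lies at 0.4 on the horizontal and -0.04 on the vertical axis.

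Other genes around the pathway were counted from 4 further lists in siVPS37ABC against siCTRL. Of 17 tested genes of SREBP processing and other sterol or isoprenoid steps, 2 rose and 1 fell (median 0.04), 17.6% called where 21.9% of all tested genes were. MBTPS1, the protease that makes the first cut in SREBP factors, was at 10.7, 11.8 and 16.3 TPM in siCTRL and 21, 29.6 and 42.9 TPM in siVPS37ABC (1.17 ± 0.22, adjusted p = 3.71e-04). MBTPS1 was also at 22.2, 24.6 and 30.7 TPM in NT, and its fall from NT to siCTRL was called (-0.96 ± 0.22, adjusted p = 0.0143). ERG28, a scaffold of sterol demethylation, rose (0.41 ± 0.11), from 202, 205 and 206 TPM in siCTRL to 251, 272 and 295 TPM. It was at 303, 252 and 257 TPM in NT, overlapping siVPS37ABC, and its fall from NT to siCTRL was called too (-0.4 ± 0.11, adjusted p = 0.0466). TMEM97, a sterol-regulated membrane protein, fell (-0.56 ± 0.17).

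Of 14 tested genes of lysosomal sterol handling, esterification and LXR targets, 2 rose and 2 fell (median 0.21), 28.6% called against the same 21.9%. NPC1, which exports cholesterol from lysosomes, was at 11.2, 13.4 and 12.2 TPM in siCTRL and 16.4, 25.3 and 29.1 TPM in siVPS37ABC (0.86 ± 0.18, adjusted p = 0.00119). NR1H2, the gene of a sterol-sensing LXR receptor, was at 12.5, 18.3 and 13 TPM against 40.9, 35.6 and 25.8 TPM (1.16 ± 0.22, adjusted p = 2.79e-04). Both rose without overlap, and the phospholipid acyltransferase LPCAT3 fell (-0.55 ± 0.13).

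Of 15 tested genes of other fatty acid synthesis, elongation and activation, 3 rose and 1 fell (median 0.18), 26.7% called against 21.9%. ACSL1, an acyl-CoA synthetase, was at 10.2, 9.69 and 7.95 TPM in siCTRL and 19.4, 21.4 and 19.1 TPM in siVPS37ABC (1.03 ± 0.15, adjusted p = 2.14e-05). In NT it was at 14.6, 13.2 and 15.8 TPM, and its fall from NT to siCTRL was called (-0.6 ± 0.15, adjusted p = 0.0291). Its relative ACSL4 (1.02 ± 0.17) and the malic enzyme ME1, a source of NADPH (0.87 ± 0.16), rose as well. Of 12 tested genes of fatty acid oxidation none rose and 2 fell (median -0.13), 16.7% called against 21.9%. Each of these 4 shares is near that of all tested genes. They were HADH, at 64, 59.2 and 68.3 TPM in siCTRL and 31.5, 31.3 and 43.4 TPM in siVPS37ABC (-0.85 ± 0.17, adjusted p = 8.49e-04), and the peroxisomal thiolase ACAA1 (-0.61 ± 0.17).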

How the data were processed

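Members and lists were chosen with earlier results of these data known. RNA was measured with an amplicon panel of human transcripts, per the labels' protocols. HTSeq 0.6.0, DESeq2 1.18.1 and hg19 are named, with no role, in the submitters' processing notes. The authors deposited 1 table of normalized values, taken here as TPM since each of its 27 columns sums to 1000000. Whole reads could not be recovered (0.5 to 6.5% of 200 low values on whole steps, tolerance 0.02, where chance gives 4%), so depth is unknown, errors come from replicates alone and no count model was run. Empty lines (2157) were left out, and 11 of 282690 values are 0.

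Values were tested as log2(TPM + 1) with limma 3.58.1 in R 4.3.3: 9 group means, 18 residual degrees of freedom, a variance trend with level, the 6458 genes whose mean reached 10 TPM, Benjamini-Hochberg adjustment within a comparison, threshold 0.05. Contrasts set each of 7 knockdowns against siCTRL, the triple against each pair, siCTRL against NT, and (4) a combined knockdown against its summed single ones; the last of these for the triple was added after the data were seen. On 10 simulations with 200 changed genes, for siVPS37ABC against siCTRL over 6458 genes, 44.9% of 1.5-fold and 87.6% of 2-fold changes were found, with 6.4 false calls on average. Noise was drawn independently for each simulated library. The labels give each replicate number a batch, which pairs the libraries; after removal of group means, same-numbered libraries had a mean r of 0.355 (lowest -0.386) and others -0.175. A replicate block (16 residual degrees of freedom) was an alternative, as were a term for the number that ends the library description (12), a filter at a mean of 50 TPM or none, quantile normalization, a pseudocount of 8, NT as reference, only the groups compared and each library left out. Per-library values are given for members called in siVPS37ABC against siCTRL or against a pair, and of each further list up to 3 genes with the smallest p are named; values of other members were chosen after they were seen. Promoters came from RefSeq on GRCh38.p14. Python 3.11.15 with numpy 2.4.6, pandas 2.3.3 and matplotlib 3.10.9 was used for counts and figures.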

Additional observations from a re-analysis of the deposited data

How the results depend on the processing

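The count of members called kept within 1.5 times its value for siVPS37ABC against siCTRL (13) under the replicate block (16), the library number term (17), a pseudocount of 8 (13), a mean of at least 50 TPM (9 of 17), no filter (15), quantile normalization (15), only the groups compared (9) and NT as reference (9), and lay between 8 and 13 without 1 library. The replicate block moved the counts to 2 in siVPS37A, 3 in siVPS37B, 2 in siVPS37C, 6 in siVPS37AB, 8 in siVPS37AC, 3 in siCTRL against NT, 4 in siVPS37ABC against siVPS37AB and 13 against siVPS37BC; it moved no other count of members by over 1.5 times. The library number term gave 1 in siVPS37C, 5 in siVPS37AB, 14 in siVPS37AC, 1 in siVPS37BC, 4 in siCTRL against NT, 4 in siVPS37ABC against siVPS37AB and 8 against siVPS37BC. NT as reference gave 1 in siVPS37A, 1 in siVPS37B, 3 in siVPS37C and 1 in siVPS37BC. A mean of at least 50 TPM gave 0 in siVPS37AB, 0 in siCTRL against NT and 1 in siVPS37ABC against siVPS37AB, which tests fewer genes. Only the groups compared gave 0 in siCTRL against NT, and in siVPS37ABC 1 against siVPS37AB, 0 against siVPS37AC and 3 against siVPS37BC, from fewer samples, and quantile normalization gave 0 in siCTRL against NT; for the other settings the cause was not tested. Without 1 library the counts were 0 to 0 for the single knockdowns, siVPS37BC, siCTRL against NT and the 4 departures, 1 to 2 for siVPS37AB, 2 to 3 for siVPS37AC, and for siVPS37ABC 0 to 3 against siVPS37AB, 0 to 1 against siVPS37AC and 3 to 5 against siVPS37BC. Of 6889 single values under an alternative, 6660 kept their direction or stayed uncalled (368 of these with another sign), 103 lost and 124 gained a call, and 2 reversed: with NT as reference SCD was at -0.042 in siVPS37ABC and -0.38 in siVPS37AC. Under quantile normalization the share of called genes that were higher went from 65.3 to 44.2% in siVPS37A, 75.6 to 53.9% in siVPS37AB, 69.7 to 46.6% in siVPS37AC, 49.4 to 38.8% in siVPS37BC and 34.3 to 60.6% in siVPS37ABC against siVPS37AB. The shares of all tested genes given above come from the model of group means, with or without the filter. Under quantile normalization the number of all called genes is given for siVPS37ABC against siCTRL alone. No such share is given for the block, the library number term, NT as reference or only the groups compared. None is given for a pseudocount of 8, a mean of at least 50 TPM or a library left out either. A higher or lower count of members under these settings is therefore not a result about the members. With 3 replicates, 1 siRNA sequence a paralog and unknown depth, changes under 1.5-fold can be missed. The 44.9% found in the simulations holds for 200 changed genes and independent noise in each library. In the data 1417 genes were called in siVPS37ABC against siCTRL, so that share need not hold there.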
